A study of Mus musculus with 16 samples.

Results

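The antiviral genes of the type I interferon response were followed in liver neutrophils with or without the receptor for interferon gamma. The 42 members were named by gene symbol as well-known products of that response, and all 42 matched an Ensembl identifier of the deposited table. Of these, 39 reached 10 or more counts in at least 8 of the 16 libraries and were analysed, out of 9851 genes tested. Mx1, Ifi44 and Ifi44l did not reach that minimum and are treated as not measured. Reads came from bulk RNA sequencing of sorted liver neutrophils of 8 chimeric mice (numbers 2 to 9), whose blood cells grew from an equal mix of both marrows. The 8 Ifngr1_KO libraries came from neutrophils that descend from CD45.2+ marrow lacking Ifngr1. Their controls were the 8 libraries of WT, neutrophils that descend from CD45.1+ wild-type marrow in the same animals. Each mouse gave 1 library of each genotype, so every pair shared a liver, a tumour and a treatment. All animals were irradiated wild-type hosts of the C57BL/6 strain with a reconstitution of 8 weeks, carried MC38 flank tumours (a mouse colon carcinoma line) and received agonistic antibody against CD40 (aCD40) 2 days before the livers were taken. All samples analysed here were treated, so the values describe livers under CD40 agonist. The receptor was missing only from marrow-derived Ifngr1_KO cells, while the host tissue and the WT blood cells kept it. In every animal the genotype coincided with the marrow donor, the CD45 allele and the gate of the sort, and these cannot be told apart from the receptor.

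Type I interferons bind the IFNAR receptor, whose kinases JAK1 and TYK2 activate the complex ISGF3, which contains STAT2 and IRF9 and binds interferon-stimulated response elements (ISRE) in the promoters of antiviral genes. Interferon gamma uses its own receptor, IFNGR, and acts through gamma-activated sites (GAS), and it also induces IRF1, which can bind ISRE-like elements. Many antiviral genes can therefore answer to both cytokines, and neutrophils express both receptors. The comparison asks how much of the antiviral programme of a liver neutrophil depends on its own interferon gamma receptor.

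Libraries held 12.5 to 21.7 M estimated counts, and levels are given as CPM, library-size-scaled counts adjusted by TMM factors. The Ifngr1_KO library of mouse 7 stood apart, with a median correlation of 0.762 with the other libraries, against 0.836 to 0.897 for those, and it held the lowest Ifngr1_KO level of 18 members and the highest of 12. Mitochondrially encoded mRNAs took 1.39 ± 0.656% of counts in Ifngr1_KO and 0.595 ± 0.272% in WT (SD, n = 8). Ifngr1 itself, the targeted gene, was 83.9 ± 29.5 CPM in Ifngr1_KO and 305 ± 46.6 CPM in WT (SD, n = 8). The neutrophil marker list was present throughout, with a summed level of 28017 to 86829.6 CPM in Ifngr1_KO and 33121 to 58341 CPM in WT, and Ly6g, its defining member, ranged over 175 to 504 CPM in Ifngr1_KO and 224 to 419 CPM in WT. Of its 10 genes Ngp, a granule protein gene, was called lower at -0.64 (adjusted p = 0.00588, SE 0.10) and in 8 of 8 mice. Mmp9 had -0.43 (adjusted p = 0.138, SE 0.13) and Camp -0.46 (adjusted p = 0.189, SE 0.16) in edgeR's test, not called and lower in 8 and 7 of 8 mice. Of the 10 genes 8 had values below 0, while S100a8 had 0.30, lower in 2 of 8 mice, and Retnlg 0.071. S100a9 stood at -0.096, and only Ngp was called. The list of 12 Kupffer cell and monocyte markers summed to 1487 to 2658 CPM in Ifngr1_KO and 2247 to 3538 CPM in WT and was lower in Ifngr1_KO in 8 of 8 mice. Its genes Vsig4, at 0 in every library, Clec4f, Timd4 and Marco averaged under 1 CPM over all libraries, and most of the sum came from Csf1r and Ly6c2. Other macrophage genes of the list were present at low levels. C1qb averaged 13.3 CPM in Ifngr1_KO and 14.8 CPM in WT, C1qa 5.16 and 5.62 CPM, C1qc 5.35 and 6.21 CPM and Cd5l 1.95 and 1.64 CPM. Ly6c2 and Adgre1 were the list members called lower. The 6 markers of plasmacytoid dendritic cells, a strong source of type I interferon, summed to 6.86 to 19.8 CPM in Ifngr1_KO and 3.89 to 21.5 CPM in WT. Hepatocyte markers summed to 174 to 983 CPM in Ifngr1_KO and 169.5 to 869 CPM in WT, T and NK cell markers to 5.23 to 26.5 CPM in Ifngr1_KO and 6.84 to 19.98 CPM in WT and endothelial markers to 5.17 to 11.4 CPM in Ifngr1_KO and 4.63 to 12.8 CPM in WT. Among B cell markers Ighm, the immunoglobulin heavy chain gene, was 57.6 ± 10.3 CPM in Ifngr1_KO and 198 ± 54.5 CPM in WT (SD, n = 8) and was called lower. Ms4a1, at 0.64 on the log2 scale, Cd79b, at 0.43, and Igkc, at 0.24, were not called. The part of these other cells in the results on the members was not tested. In bulk RNA, fewer cells of a type and less RNA per cell cannot be told apart.

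Antiviral transcripts were abundant in both genotypes, and most of them were not called different. The 39 members together took 2.57 ± 0.403% of counts in Ifngr1_KO and 2.55 ± 0.232% in WT (SD, n = 8). The Ifngr1_KO mean includes mouse 7, with 3.35% in its Ifngr1_KO library against 2.47% in its WT library. On the TMM scale the members summed to a median of 24672 CPM in Ifngr1_KO and 27129.6 CPM in WT. That sum was lower in Ifngr1_KO in 7 of 8 mice. Both the share and the sum weigh abundant members most. Ifitm3, Ifitm2 and Ifi27l2a averaged 5099, 2859 and 2916 CPM in Ifngr1_KO, above their 4423, 2298 and 1677 CPM in WT. Oasl2, Oas3 and Samhd1 averaged 1648, 938 and 882 CPM in Ifngr1_KO, below their 2476, 1589 and 1944 CPM in WT. In edgeR's quasi-likelihood test with mouse as a block, at a Benjamini-Hochberg adjusted p under 0.05 over all 9851 genes, 9 of 39 members fell in Ifngr1_KO, 1 rose and 29 were not called. Over all genes tested the same rule called 2.32% lower and 0.477% higher, or 2.8% in either direction. The members that fell were Phf11b, Lgals3bp, Samhd1, Znfx1, Uba7, Sp110, Ifit1bl1, Herc6 and Xaf1, and the member that rose was Ifi27l2a. Well-known antiviral genes such as Isg15, Usp18, Ifit1, Ifit3, Oas1a and Rsad2 were among the 29 not called. Of these 29, other tools, DESeq2 and limma-voom, both called Isg15, Ifit2, Oas3, Oasl2, Phf11d and Rtp4 lower. Limma-voom also called Ifi27 and Ifi35 lower. Both tools called more of all genes tested too, as given in the last section. The median log2 fold change of the 39 members (Ifngr1_KO over WT) was -0.35, against 0.046 over all genes tested. Values below 0 were found for 32 of 39 members and for 46.8% of all genes tested, and 22 of 39 members had an unadjusted p under 0.05, against 16.3% of all genes.

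**Figure D1:**
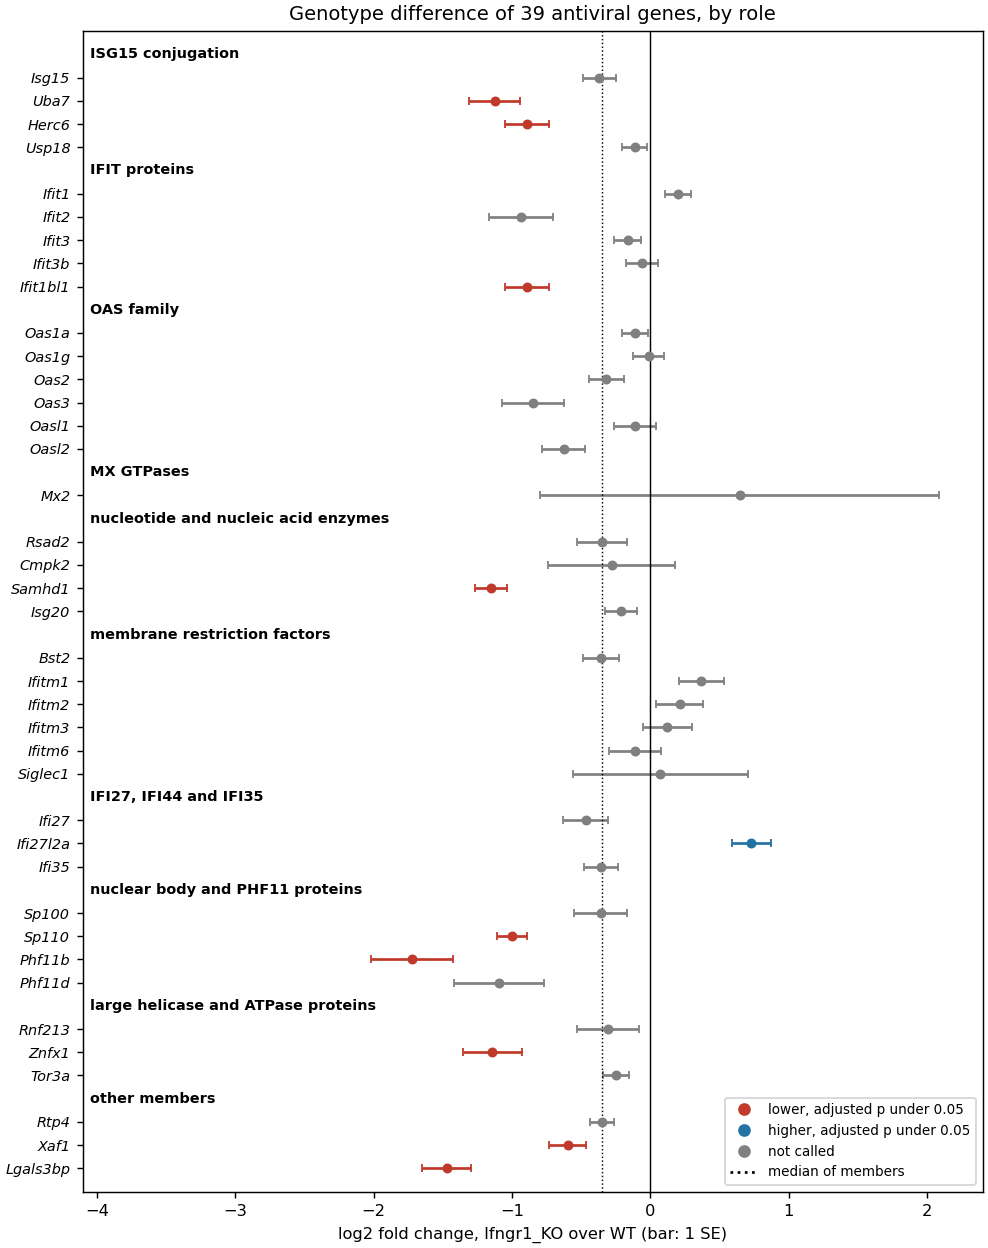
The fitted log2 fold change of each of the 39 members tested, Ifngr1_KO over WT, is plotted as a point with 1 SE to each side, grouped by role, with the dotted line at the median of the members. The 9 members called lower (red) lie between -1.72 and -0.60, the 1 called higher (blue) is Ifi27l2a at 0.73, and the other 29 are grey.

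The counts moved with single mice and with a library measure. Without mouse 7 the same test called 17 members lower and 1 higher, and over all genes 334 lower and 78 higher, against 229 and 47 with all mice. The 8 members that joined were Isg15, Ifit2, Oas3, Oasl2, Isg20, Ifi27, Ifi35 and Rtp4. Without mouse 8 it called 5 members lower and none higher (144 and 26 over all genes), and without mouse 3 it called 6 lower and none higher (144 and 19 over all genes). With the mitochondrial share as a covariate, which itself differed between the genotypes, 3 members were called lower, Samhd1, Sp110 and Xaf1, and none higher, while calls over all genes dropped to 85 lower and 8 higher. With library totals in place of TMM scaling, 8 members were lower and 1 higher, while over all genes the split of calls was 164 lower and 102 higher, against 229 lower and 47 higher with TMM scaling, and the median of all genes was 0.16 against 0.046. Samhd1 and Sp110 were called under every alternative run, from scaling, filter and tool to each mouse left out.

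For comparison, the guanylate-binding proteins and immunity-related GTPases, classical targets of interferon gamma, had 14 of 15 tested genes lower and a median log2 fold change of -2.70. Genes of class I antigen presentation and the immunoproteasome had 12 of 13 lower and a median of -1.74. The deepest antiviral member, Phf11b, had -1.72. No test was made between these lists.

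The upstream machinery was present, but its ligands were hardly seen in these cells. Of 18 interferon genes listed, among them Ifnb1 and the Ifna genes, 16 had no count in any library, which allows up to 0.151 to 0.254 CPM per library (3 counts). Ifng itself had 7 counts over all 16 libraries. Ifnar1 and Ifnar2, the receptor chains for type I interferon, had log2 fold changes of -0.25 (adjusted p = 0.563, SE 0.19) and 0.15 (adjusted p = 0.743, SE 0.19) in edgeR's test. Stat2, a subunit of ISGF3, fell: it was 106 ± 39.8 CPM in Ifngr1_KO and 227 ± 52.4 CPM in WT (SD, n = 8), at -1.18 (adjusted p = 0.00631, SE 0.19) in edgeR's test. Irf9, the DNA-binding partner of ISGF3, was not called, at -0.47 (adjusted p = 0.0856, SE 0.13) in edgeR's test. Among the other interferon regulatory factors 2 of 6 fell and none rose: Irf1 had a log2 fold change of -2.40 and Irf2 of -0.90. Irf7, the factor that amplifies type I interferon production and is itself a target of the pathway, was 3464 ± 1121 CPM in Ifngr1_KO and 3938 ± 630.3 CPM in WT (SD, n = 8), at -0.24 (adjusted p = 0.473, SE 0.15) in edgeR's test. Of Ifngr1, Ifngr2 and Jak2 only Ifngr1 was called, and none of 5 feedback inhibitors was in edgeR's test. The most abundant of the 5, Socs3 and Pias1, had 0.24 and -0.57 on the log2 scale. An unadjusted p under 0.05 was found for 2 others, named after their values were seen. Cish, an inhibitor of cytokine receptor signalling, was 37.6 ± 15.8 CPM in Ifngr1_KO and 87.1 ± 17.4 CPM in WT (SD, n = 8), with every Ifngr1_KO library below every WT library, at -1.41 (adjusted p = 0.0939, SE 0.39) in edgeR's test. Ptpn2, a phosphatase of JAK kinases, was at -0.53 (adjusted p = 0.209, SE 0.20) and lower in 8 of 8 mice.

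Promoter letters were read from RefSeq windows of 250 bases before to 50 after each annotated start (GRCm38.p6). The ISRE was searched as GAAA followed, after any 2 bases, by GAAA again, and the GAS as TTC followed, after any 3 bases, by GAA, on both strands. A window was found for 31 of the 39 members analysed. ISRE letters stood in at least 1 window of 13 of these 31 genes (41.9%), against 320 of 7268 tested genes with a window (4.40%), and by window in 36.8% of those of members and 3.44% of all 32851. GAS letters stood in 8 of 31 (25.8%), against 8.65% of the tested genes, and by window in 21.1% of those of members and 8.3% of all. Of the 9 members that fell, all of which had a window, 2 held ISRE letters, Phf11b and Ifit1bl1, and 1 held GAS letters, Samhd1. Of the 22 members not called that had a window, 11 held ISRE and 7 held GAS letters. In Bst2 and Ifitm3, which are among these, the GAS match shares bases with an ISRE match. A match is no evidence of binding, and windows without a match say only that these letters are not in them. The following windows show these letters in capitals, 5′ to 3′ on the strand of the gene, first for the 3 members that fell and held a match, then for 3 well-known members not called that hold ISRE letters.
Samhd1 (chr2:157135047-157135346, minus strand): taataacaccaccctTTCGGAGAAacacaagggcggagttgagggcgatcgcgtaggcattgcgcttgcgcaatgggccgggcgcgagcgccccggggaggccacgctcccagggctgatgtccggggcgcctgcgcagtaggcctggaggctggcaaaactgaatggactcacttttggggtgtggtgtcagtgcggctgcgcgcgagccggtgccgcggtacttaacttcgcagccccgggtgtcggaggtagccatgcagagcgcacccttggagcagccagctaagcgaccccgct
Phf11b (chr14:59341281-59341580, minus strand): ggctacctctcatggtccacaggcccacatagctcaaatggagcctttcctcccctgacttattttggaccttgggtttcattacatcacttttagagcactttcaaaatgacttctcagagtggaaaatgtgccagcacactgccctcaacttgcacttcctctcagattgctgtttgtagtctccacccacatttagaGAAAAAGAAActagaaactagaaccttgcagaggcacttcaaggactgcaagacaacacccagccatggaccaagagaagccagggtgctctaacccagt
Ifit1bl1 (chr19:34601919-34602218, minus strand): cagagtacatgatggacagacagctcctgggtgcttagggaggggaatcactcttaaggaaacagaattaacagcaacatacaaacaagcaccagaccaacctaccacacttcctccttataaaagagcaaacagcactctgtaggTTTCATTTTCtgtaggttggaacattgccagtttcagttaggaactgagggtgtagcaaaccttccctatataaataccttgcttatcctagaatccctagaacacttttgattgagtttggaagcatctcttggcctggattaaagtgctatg
Isg15 (chr4:156200769-156201068, minus strand): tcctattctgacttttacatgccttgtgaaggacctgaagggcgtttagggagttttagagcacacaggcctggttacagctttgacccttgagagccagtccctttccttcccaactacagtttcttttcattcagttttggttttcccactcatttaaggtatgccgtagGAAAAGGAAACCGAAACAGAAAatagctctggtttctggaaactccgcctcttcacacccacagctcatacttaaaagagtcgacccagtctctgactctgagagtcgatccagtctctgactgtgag
Ifit1 (chr19:34640639-34640938, plus strand): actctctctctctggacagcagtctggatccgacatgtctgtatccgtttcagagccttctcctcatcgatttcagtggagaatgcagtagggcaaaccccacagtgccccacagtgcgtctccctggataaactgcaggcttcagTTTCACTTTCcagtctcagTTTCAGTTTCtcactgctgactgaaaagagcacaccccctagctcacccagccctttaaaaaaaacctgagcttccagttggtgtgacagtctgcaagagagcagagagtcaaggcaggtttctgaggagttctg
Oas1a (chr5:120907476-120907775, minus strand): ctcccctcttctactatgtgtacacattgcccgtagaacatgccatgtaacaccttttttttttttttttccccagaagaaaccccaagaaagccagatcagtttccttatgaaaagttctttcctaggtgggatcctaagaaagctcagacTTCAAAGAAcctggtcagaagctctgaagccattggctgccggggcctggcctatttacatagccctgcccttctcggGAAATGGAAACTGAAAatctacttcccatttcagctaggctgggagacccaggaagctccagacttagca
In Samhd1 the capitals mark GAS letters, in Oas1a they mark GAS letters and, closer to the start, 2 overlapping ISRE matches, and in the others ISRE letters. In Isg15 the capital run holds 3 overlapping matches, which begin 78, 72 and 66 bases before the start, and Ifit1 has 2 separate ones, 104 and 85 bases before it. The match of Phf11b began 50 bases before the start, and that of the printed Ifit1bl1 window 104 bases before it.

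The ISG15 system showed differences among its members. Isg15 encodes a ubiquitin-like protein that is attached to other proteins, Uba7 its activating enzyme, Herc6 the mouse ligase for it, and Usp18 the protease that removes it and also restrains signalling from IFNAR. The lowest, median and highest level of Uba7 were 43.7, 117 and 160.1 CPM in Ifngr1_KO libraries, against 152, 249.9 and 303 CPM in WT libraries, lower in Ifngr1_KO in 8 of 8 mice, and its log2 fold change was -1.13 (adjusted p = 0.0081, SE 0.19) in edgeR's test. The groups overlapped at their edges, since the highest Ifngr1_KO library, that of mouse 4, lay above the lowest WT library, that of mouse 2. Herc6 had 67.5, 96.1 and 144 CPM in Ifngr1_KO libraries, against 119, 195 and 241 CPM in WT libraries, and a fitted change of -0.89 (adjusted p = 0.0143, SE 0.16) in the same test. Its call was lost without mouse 8 or 9 (adjusted p = 0.0583 and 0.0504), and both calls were lost with the mitochondrial covariate, at -0.65 for Uba7 and -0.83 for Herc6. The substrate Isg15, the member of this group with the highest level per length (772 CPM per kb in Ifngr1_KO and 991 CPM per kb in WT), had 315, 562 and 859 CPM in Ifngr1_KO libraries, against 414, 749 and 999 CPM in WT libraries. These groups overlapped widely, and the log2 fold change was -0.37 (adjusted p = 0.15, SE 0.12), lower in 7 of 8 mice. The exception was mouse 7, without which it was -0.47 (edgeR adjusted p = 0.00524). Isg15 was also called lower by DESeq2 and limma-voom. Usp18 averaged 403 ± 82.1 CPM in Ifngr1_KO and 438 ± 98.0 CPM in WT (SD, n = 8), at -0.11 on the log2 scale and not called.

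Of the 5 IFIT genes 1 fell. IFIT1 binds viral RNA that lacks the methylation marks of host caps, and all 5 genes lie in a cluster on chromosome 19. The gene that fell was Ifit1bl1, a close relative of Ifit1, with 19.5, 31.7 and 46.7 CPM in Ifngr1_KO libraries, against 40.4, 55.6 and 86.6 CPM in WT libraries as its lowest, median and highest level. It was lower in 8 of 8 mice, with overlapping groups and a log2 fold change of -0.89 (adjusted p = 0.0127, SE 0.16). That call was lost without mouse 3 or 8 (adjusted p = 0.0517 and 0.0566) and with the mitochondrial covariate, at -0.76. Ifit1 went the other way in 7 of 8 mice, with 303, 418 and 668 CPM in Ifngr1_KO libraries, against 266, 354 and 545 CPM in WT libraries. Its log2 fold change of 0.20 (adjusted p = 0.317, SE 0.09) was not called. The gene with the highest level per length was Ifit3 (589 CPM per kb in Ifngr1_KO and 654 CPM per kb in WT), which averaged 1028 ± 301 CPM in Ifngr1_KO and 1140.4 ± 287 CPM in WT (SD, n = 8). Ifit2 had the largest change of the group, -0.94 (adjusted p = 0.0644, SE 0.23), not called in edgeR's test but called by DESeq2 and limma-voom. Its lowest, median and highest levels were 61.9, 288 and 381 CPM in Ifngr1_KO libraries, against 309, 456 and 689 CPM in WT libraries. The low end was the Ifngr1_KO library of mouse 7, far from the other 7, and without that mouse Ifit2 was called at -0.72 (adjusted p = 0.0156). Ifit3 and its near-copy Ifit3b share reads: 61.8% of the 31-base words of Ifit3 transcripts also occur in Ifit3b transcripts, so the split of counts between them is uncertain. Both were close to 0, at -0.17 and -0.061, and Ifit3b turned to 0.051 with library totals.

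None of the 6 OAS genes was called by edgeR, with 2 called by DESeq2 (Oas3, Oasl2) and 2 called by limma-voom (Oas3, Oasl2). An unadjusted p under 0.05 in edgeR's test was found for 3 of the 6, against 16.3% of all genes. These 3, Oas2, Oas3 and Oasl2, were all lower in Ifngr1_KO. OAS enzymes sense double-stranded RNA and make oligoadenylates that activate RNase L, and the OAS-like proteins are their relatives. The highest level per length was that of Oasl1 (399 CPM per kb in Ifngr1_KO and 417 CPM per kb in WT), with 391, 1086 and 1471 CPM in Ifngr1_KO libraries, against 627, 1019 and 1605 CPM in WT libraries and a log2 fold change of -0.11. Oas3 had the largest change of the family, -0.85 (adjusted p = 0.0808, SE 0.23) in edgeR's test, and was lower in 8 of 8 mice. Its levels were 270.04, 929 and 1339.6 CPM in Ifngr1_KO libraries, against 1224, 1559.6 and 1929 CPM in WT libraries. The Ifngr1_KO library of mouse 7 was the low extreme, and without mouse 7 the change was -0.63 and was called (adjusted p = 0.0175). Oasl2, also lower in 8 of 8 mice, had -0.63, and -0.48 without mouse 7, where it was called (adjusted p = 0.00511). Oas1a and Oas1g, which share 68.7% of the 31-base words of Oas1a, had -0.11 and -0.012, and Oas2 had -0.32. With library totals Oas1g turned to 0.10 and Oasl1 to 0.00048.

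The MX genes were close to undetected. MX proteins are GTPases that trap viral nucleocapsids, and many laboratory strains, C57BL/6 among them, carry a defective Mx1 allele. Mx1 had 213 counts over all 16 libraries, with 10 or more in 5 of them. Mx2, which GENCODE lists as a polymorphic pseudogene, passed with 10 or more counts in 9 libraries. Its levels were 0, 0.922 and 4.56 CPM in Ifngr1_KO libraries, against 0, 1.03 and 3.38 CPM in WT libraries, and its log2 fold change of 0.64 (adjusted p = 0.858, SE 1.44) has an SE larger than itself. Ifi44, at 250 counts in all with 4 libraries of 10 or more, and Ifi44l, at 0 in every library, were also not measured.

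Among enzymes that act on nucleotides and nucleic acids, 1 of 4 fell, and it had the smallest p of all members. Samhd1 hydrolyses deoxynucleotide triphosphates and so starves viruses of the building blocks of DNA. Its lowest, median and highest levels were 612, 892 and 1053 CPM in Ifngr1_KO libraries, against 1687, 1960.1 and 2239 CPM in WT libraries, so every Ifngr1_KO library lay below every WT library, as was true of 4 of 39 members and of 1.48% of all genes tested. The log2 fold change was -1.15 (adjusted p = 0.000153, SE 0.11) in edgeR's test, and it ran from -1.21 to -0.99 over the alternatives. Rsad2, which encodes viperin, an enzyme that makes a chain-terminating nucleotide, had the highest level per length here (199 CPM per kb in Ifngr1_KO and 242 CPM per kb in WT). It averaged 864 ± 335 CPM in Ifngr1_KO and 1047 ± 269.8 CPM in WT (SD, n = 8) and was not called, at -0.35 (adjusted p = 0.362, SE 0.18). Cmpk2, a mitochondrial nucleotide kinase and the neighbour of Rsad2 on chromosome 12, ran over 12.1, 238 and 388 CPM in Ifngr1_KO and 21.5, 231 and 436 CPM in WT (lowest, median and highest). It was low in both libraries of mice 5 and 9 and in the Ifngr1_KO library of mouse 7, and its log2 fold change was -0.28 (SE 0.46). Low levels in these libraries were not particular to Cmpk2. Jak1 held 43.7 to 104 CPM in them, against 219 to 538 CPM in the others, and Socs3 37.0 to 103 CPM, against 114 to 1042 CPM. Ifnar2 was low in both libraries of mice 5 and 9, at 12.4 to 60.8 CPM, against 105 to 236 CPM in the others. The split was not clean. For Cmpk2, Jak1, Socs3 and Ifnar2 the lowest of the others was the WT library of mouse 4, which held 76.6 CPM of Cmpk2. The cause was not tested. The exonuclease gene Isg20 had -0.21 and was not called.

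None of 6 membrane restriction factors was called by edgeR, DESeq2 or limma-voom, and 1 of them, Ifitm3, was the most abundant member per length. An unadjusted p under 0.05 in edgeR's test was found for 2 of the 6, against 16.3% of all genes. These 2 went opposite ways, Bst2 lower and Ifitm1 higher in Ifngr1_KO. IFITM proteins sit in endosomal membranes and block fusion of enveloped viruses, and Bst2 encodes tetherin, which holds budding virions at the cell surface. Ifitm3 had 7521 CPM per kb in Ifngr1_KO and 6523 CPM per kb in WT, and its lowest, median and highest levels were 3012, 4222 and 10865 CPM in Ifngr1_KO libraries, against 3230.2, 4201 and 6858 CPM in WT libraries. The highest value was that of the Ifngr1_KO library of mouse 7, and its log2 fold change was 0.12 (adjusted p = 0.772, SE 0.18). Ifitm1 had the largest change of the group, 0.37 (adjusted p = 0.289, SE 0.16), with 706, 1018 and 3031 CPM in Ifngr1_KO libraries, against 588, 787 and 1968 CPM in WT libraries. Ifitm2 had 0.21 and Ifitm6 -0.11. Of Ifitm2, 55.5% of the 31-base words also occur in other genes, chiefly Gm45717. Bst2 had -0.36, lower in 7 of 8 mice. Siglec1, which encodes the sialoadhesin of macrophages, stood at 4.57, 7.42 and 17.1 CPM in Ifngr1_KO and 0.314, 8.76 and 14.4 CPM in WT, with a log2 fold change of 0.07 (SE 0.63).

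Ifi27l2a was the only member that rose. It encodes a small membrane protein of the ISG12 family, next to its relative Ifi27 on chromosome 12. The lowest, median and highest levels were 1658, 2491 and 5769.6 CPM in Ifngr1_KO libraries, against 1173, 1693 and 2518 CPM in WT libraries, and it was higher in Ifngr1_KO in 8 of 8 mice although the groups overlapped. The top value was again the Ifngr1_KO library of mouse 7. The log2 fold change was 0.73 (adjusted p = 0.022, SE 0.14), and without mouse 7 it was 0.59 (edgeR adjusted p = 0.00117). The call was lost without mouse 3, 8 or 9, at adjusted p of 0.0644, 0.063 and 0.0687. It was also lost without the mouse block (0.0777, at 0.80) and with the mitochondrial covariate, at 0.38. Its neighbour Ifi27 had -0.47, lower in 7 of 8 mice and not called in edgeR's test with all mice. Ifi35, which encodes a leucine zipper protein, had -0.35 and was not called there either. Both Ifi27 and Ifi35 were called lower by limma-voom and, in edgeR's test, without mouse 7.

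Of 4 nuclear body and PHF11 genes 2 fell. SP100 is a scaffold protein of nuclear bodies and SP110 its close relative, and PHF11 proteins carry a PHD zinc finger. Phf11b had the deepest fall of all members, with a lowest, median and highest level of 4.40, 11.4 and 16.4 CPM in Ifngr1_KO libraries, against 28.6, 34.5 and 40.6 CPM in WT libraries. Its groups did not overlap, and the log2 fold change was -1.72 (adjusted p = 0.0102, SE 0.30) in edgeR's test, or -1.51 with the mitochondrial covariate, where the call was lost. Transcripts of Phf11b share 62.9% of their 31-base words with other genes, and 44.5% with Phf11a alone, which had -0.71 and was not called, so counts of these copies are uncertain. Phf11d had -1.09 (adjusted p = 0.117, SE 0.33) at low levels of 2.39, 2.90 and 5.48 CPM in Ifngr1_KO and 4.06, 7.40 and 13.5 CPM in WT. Only DESeq2 and limma-voom called it lower. Sp110 had 49.6, 61.3 and 72.3 CPM in Ifngr1_KO libraries, against 93.9, 127 and 151 CPM in WT libraries. These groups did not overlap either, and its log2 fold change was -1.0 (adjusted p = 0.000354, SE 0.11). Sp110 shares 55.5% of its 31-base words with other loci, chiefly Gm16026, which held 0.565 CPM in Ifngr1_KO and 1.75 CPM in WT. Sp100, the highest of the 4 per length (51.1 CPM per kb in Ifngr1_KO and 61.9 CPM per kb in WT), averaged 386 ± 118 CPM in Ifngr1_KO and 468 ± 53.7 CPM in WT (SD, n = 8) and had -0.36 (adjusted p = 0.382, SE 0.19).

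Among large helicase and ATPase genes 1 of 3 fell. Znfx1 encodes a helicase-like sensor of viral RNA, Rnf213 a giant ATPase with ubiquitin ligase activity and Tor3a an ATPase of the torsin family. Znfx1 levels were 37.1, 79.2 and 137 CPM in Ifngr1_KO libraries, against 121, 171 and 276 CPM in WT libraries, lower in 8 of 8 mice with overlapping groups. Its log2 fold change was -1.14 (adjusted p = 0.016, SE 0.21). The call was lost without mouse 3, 6 or 8 (adjusted p = 0.0557, 0.0507 and 0.0602) and with the mitochondrial covariate, at -0.61. Rnf213 had -0.31. Tor3a, the highest of the 3 per length (49.5 CPM per kb in Ifngr1_KO and 57.7 CPM per kb in WT), had -0.25 (adjusted p = 0.225, SE 0.10). It lies 18.6 Mb from Ptprc, the CD45 gene whose alleles separate the donors, and Sp100 and Sp110 lie on the same chromosome, 52.4 and 52.5 Mb from Ptprc. No member lies on chromosome 10, which carries Ifngr1.

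Of the remaining 3 members 2 fell. Lgals3bp encodes a secreted glycoprotein that binds galectins, Xaf1 an antagonist of the apoptosis inhibitor XIAP and Rtp4 a chaperone of receptors that also restricts flaviviruses. Lgals3bp had 28.2, 59.5 and 101 CPM in Ifngr1_KO libraries, against 130.1, 163 and 207 CPM in WT libraries, with no overlap between the groups and a log2 fold change of -1.47 (adjusted p = 0.000792, SE 0.18). With the mitochondrial covariate it was -1.17 (edgeR adjusted p = 0.0671). Xaf1 had 141, 188 and 315 CPM in Ifngr1_KO libraries, against 209, 303 and 376 CPM in WT libraries, lower in 7 of 8 mice. The exception was mouse 7, whose Ifngr1_KO library was the highest of that group. Its log2 fold change was -0.60 (adjusted p = 0.0426, SE 0.14), or -0.58 with no call without the mouse block (adjusted p = 0.103). Its call was also lost with library totals (-0.49), with a minimum mean level of 10 CPM (-0.52) and without any 1 mouse other than mouse 7 (adjusted p = 0.0751 to 0.128). Rtp4 had the highest level per length of the 3 (368 CPM per kb in Ifngr1_KO and 467 CPM per kb in WT) and 589.9, 766 and 926 CPM in Ifngr1_KO libraries, against 829.5, 982 and 1186 CPM in WT libraries. It was lower in 8 of 8 mice, at -0.35 (adjusted p = 0.06, SE 0.09), and was called only under some alternatives, such as without mouse 7 (adjusted p = 0.00498).

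**Figure D2:**
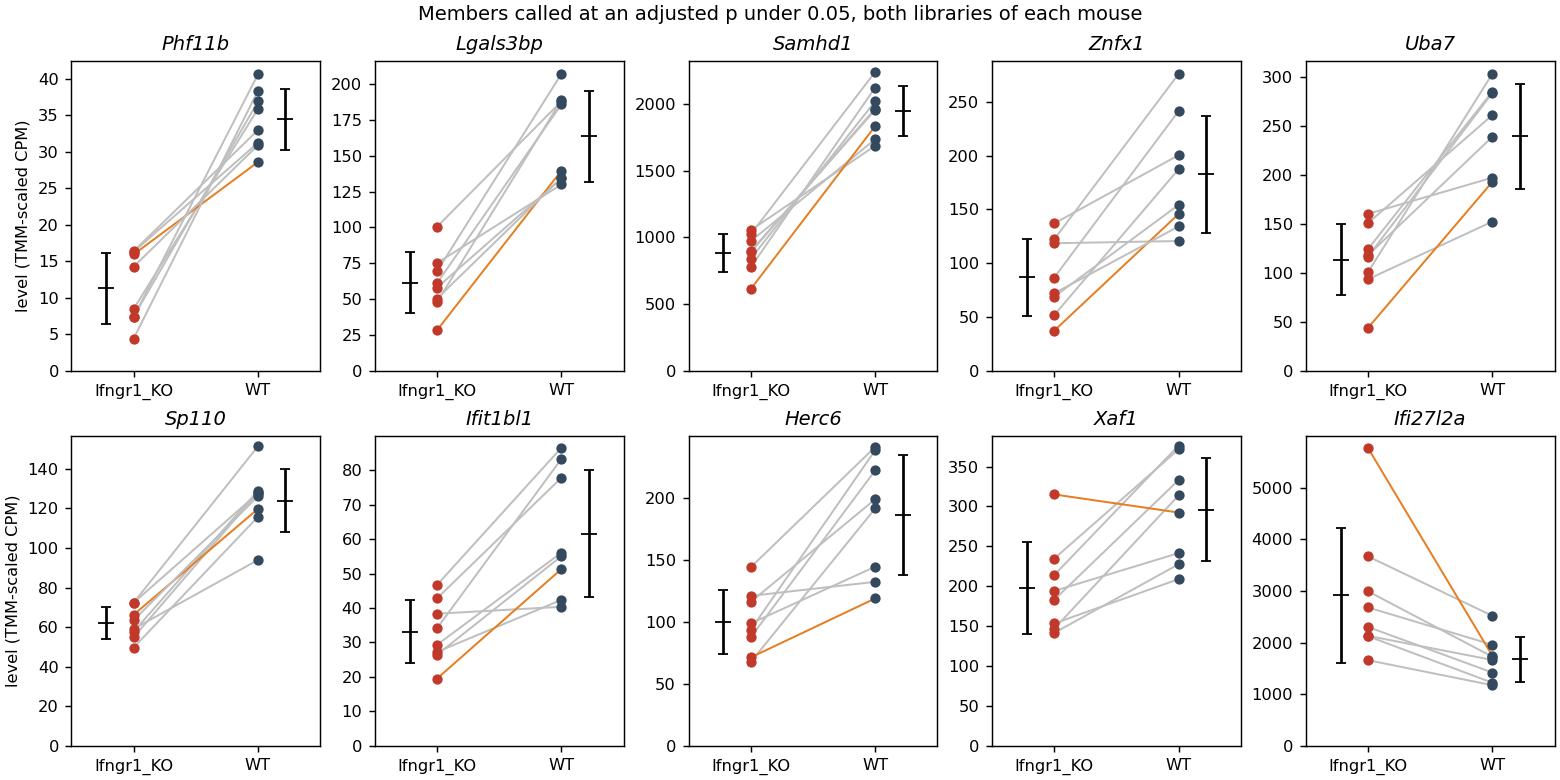
Each panel shows 1 of the 10 called members as TMM-scaled CPM on a linear axis from 0, with the 8 Ifngr1_KO libraries on the left, the 8 WT libraries on the right, lines joining the libraries of a mouse (mouse 7 in orange) and black bars for mean ± SD. In Phf11b, Lgals3bp, Samhd1 and Sp110 every Ifngr1_KO point lies below every WT point, while in Ifi27l2a every line falls toward WT.

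Most members were lower in Ifngr1_KO within every mouse. In each mouse 25 to 35 of 39 members were lower in Ifngr1_KO, against 48.5 to 49.9% of all genes tested. The median difference of the members within a mouse ran from -0.54 in mouse 6 to -0.13 in mouse 5 on the log2 scale. Of the 39 members 12 were lower in 8 of 8 mice, against 4.96% of all genes, and 4 of these, Oas3, Oasl2, Phf11d and Rtp4, were not called. Mouse 7 differed from the others in which members moved: its log2 difference was -2.58 for Ifit2, -2.49 for Oas3 and -1.83 for Sp100, each the lowest of the 8 mice, and 0.35 for Isg15 and 0.11 for Xaf1, each the highest. Over all 8 mice, 34 of 39 members spread more widely among Ifngr1_KO than among WT libraries, as did 64.9% of all genes. Without mouse 7, an alternative chosen after seeing the data, this held for 17 of 39 members and 49.4% of all genes.

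**Figure D3:**
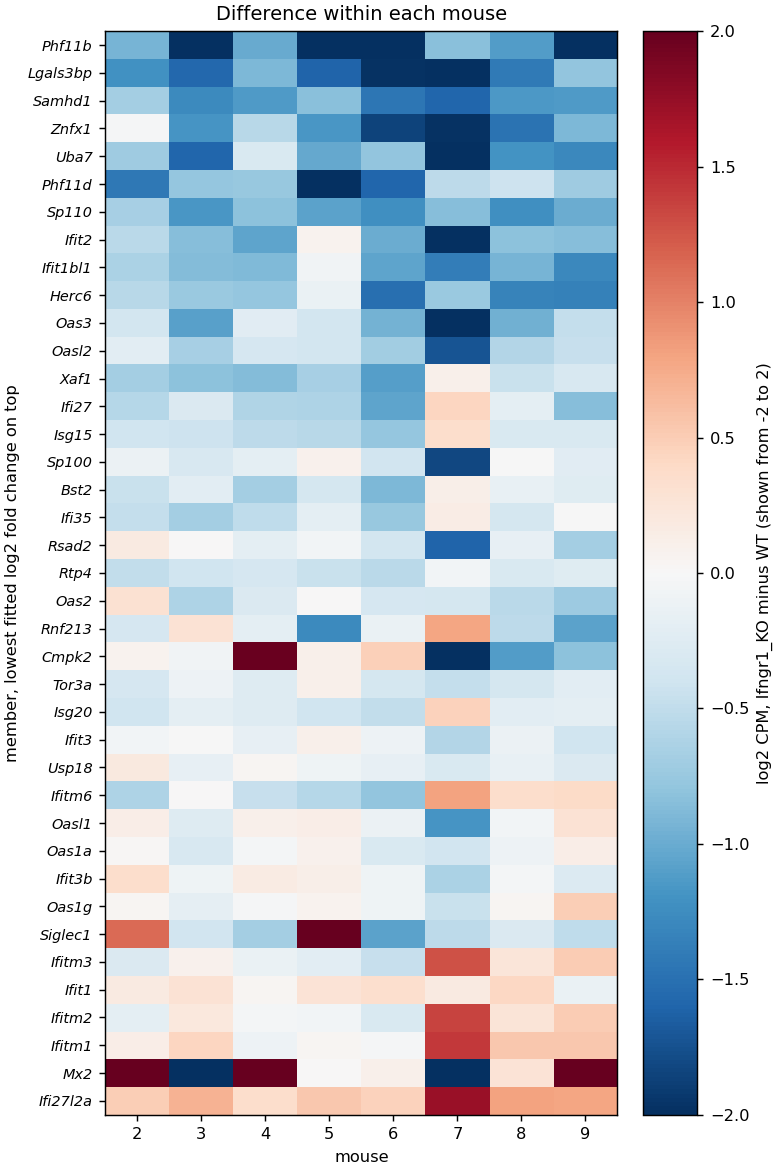
Colours give the difference in log2 CPM, Ifngr1_KO minus WT, for each member (rows, lowest fitted log2 fold change on top) in each of the 8 mice (columns), shown from -2 to 2. The upper rows are blue in nearly all mice and Ifi27l2a in the bottom row is red in all 8. In the column of mouse 7 Ifit2, Oas3 and Sp100 are deep blue, while Isg15 is pale red and Xaf1 is close to white. The strongest red of that column is in Ifi27l2a, Ifitm1, Ifitm2 and Ifitm3.

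Mouse 2 stood low and mouse 3 high in both genotypes for many members. The Ifngr1_KO library of mouse 2 was the lowest of its group for 12 members and that of mouse 3 the highest for 11, and the WT library of mouse 2 was the lowest of its group for 21 members and that of mouse 3 the highest for 17. Other libraries were extreme too. The Ifngr1_KO library of mouse 7 was the lowest of its group for 18 members and the highest for 12. The WT library of mouse 5 was the highest of its group for 12. The same counts over all genes were not made. Across the 8 mice, Ifngr1_KO and WT log2 CPM correlated with r above 0 in 34 of 39 members, with a median r of 0.467, against 66.9% of all genes and a median of 0.199. No member, and none of 9851 genes, passed an adjusted p of 0.05 in the exact two-sided permutation test of the pairings (0.00% of all genes, smallest adjusted p = 0.105). At an unadjusted p under 0.05 the permutation test gave 9 of 39 members, against 11.0% of all genes. The smallest p among members was that of Tor3a, with r = 0.938 (exact permutation p = 0.000992, adjusted p = 0.212) and rho = 0.929 (exact p = 0.00223). Without the 2 mice farthest from its WT median, mice 2 and 7, r was 0.796 (exact p = 0.0694). Ifit3 had r = 0.858 (exact p = 0.0035, adjusted p = 0.248) and rho = 0.952 (exact p = 0.00114), and 0.659 without mice 3 and 4 (exact p = 0.172). Ifit1 had r = 0.875 (exact p = 0.00355, adjusted p = 0.248) but rho = 0.571 (exact p = 0.151), and 0.644 without mice 3 and 4 (exact p = 0.321). Leaving out the mice farthest from the median narrows the range of levels and leaves fewer mice. A lower r after it therefore cannot show whether a relation rests on those mice. At the other end stood Phf11b, with r = -0.859 (exact p = 0.00903, adjusted p = 0.289), rho = -0.762 (exact p = 0.0368) and -0.932 without mice 7 and 5 (exact p = 0.0153). Libraries of a mouse share the animal, and whether they also shared a day of sorting or preparation is not given in the sources used here.

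**Figure D4:**
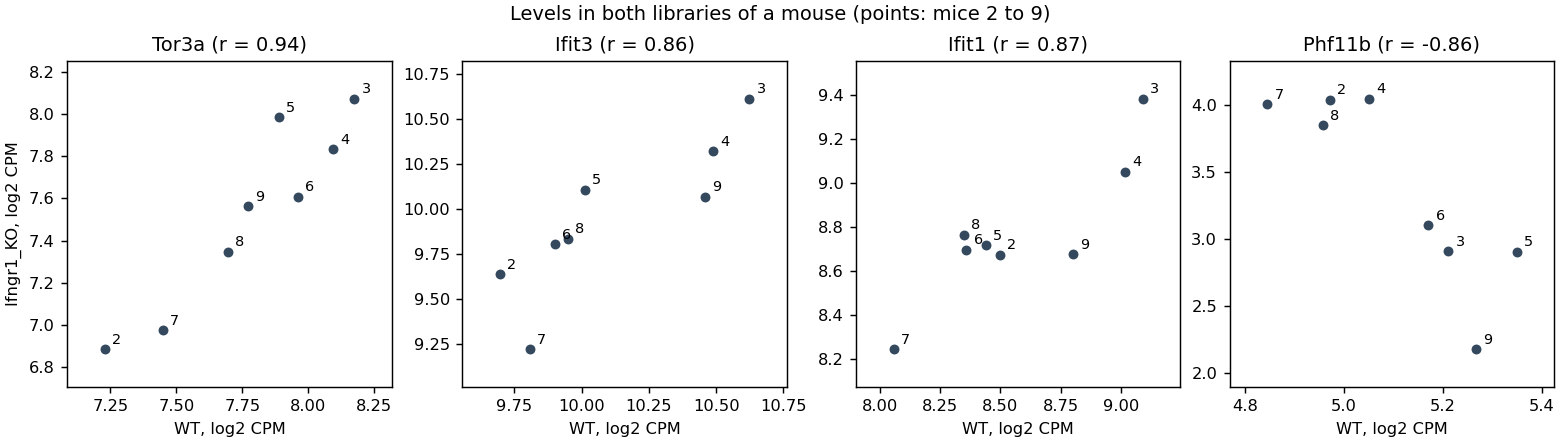
Each panel plots the log2 CPM of a gene in the Ifngr1_KO library against that in the WT library of the same mouse, with points labelled by mouse number, for Tor3a, Ifit3, Ifit1 and Phf11b. Points rise together in the first 3 panels (r of 0.94, 0.86 and 0.87) and run the other way for Phf11b (-0.86), and none of these r passed the adjusted threshold.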

How the data were processed

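Bulk RNA-seq counts of 16 libraries were analysed, 8 Ifngr1_KO and 8 WT, grouped by sample title and paired by mouse, since the series design states that both libraries of a number came from 1 mouse. The authors deposited whole-number estimated counts per Ensembl gene, unscaled. The tools named are Salmon 0.14.2 and DESeq2 1.22.1, with build mm10, per the submitters' processing notes; annotation and filters are not given there. Per the labels' protocols, cDNA was primed with oligo-dT on 1 ng of RNA and amplified over 13 PCR cycles. The SMARTseq kit named there is known to mark neither molecules nor strand, so counts include PCR copies, and antisense overlaps cannot be told apart.

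Names, positions and exon lengths came from GENCODE M21 (mm10), and 37 of 54532 identifiers had no name in it. Genes were kept by filterByExpr, scaled by TMM and tested in edgeR 4.0.16 (R 4.3.3) by the quasi-likelihood F-test, blocked by mouse, with Benjamini-Hochberg adjustment over 9851 genes. CPM are TMM-scaled, levels between genes are CPM per kb of annotated exon, and SEs are the size of the fitted change over the root of F. Alternatives were no block, other scalings and filters, DESeq2 1.42.0, limma-voom (limma 3.58.1), the mitochondrial share as a covariate and each mouse left out. Correlations over 8 mice used log2 CPM (prior count 2) and all 40320 pairings. Deviations from the group means correlated, across genes, at a mean of 0.138 within mice (0.0246 to 0.314) and -0.0180 between mice. The fit and the correlation were tested on simulated data. The members and gene lists were chosen with earlier results of these data known. Of each role group the text gives every called member and those with the highest level per length and the largest change. Some results of the pathway and marker genes are not reported here. The floors given for genes without counts cover counting error only.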

Additional observations from a re-analysis of the deposited data

Results flagged for a closer look

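Within each group of 8 libraries, a library whose log2 level lay far from the nearest other one (a gap above Dixon's 95% value for 8, as a share of the range) was looked for in every member tested. Of 78 such groups 8 held such a library, where chance alone gives about 1 in 20, and 7 of the 8 were the Ifngr1_KO library of mouse 7.

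That library was the lowest of the Ifngr1_KO group for Uba7, Ifit2, Oas3, Oasl2, Rsad2 and Sp100. It held 43.7 CPM of Uba7, against a group median of 117 CPM, and 61.9 CPM of Ifit2, against 288 CPM. It also held 270.04 CPM of Oas3 (median 929 CPM) and 721 CPM of Oasl2 (median 1730.4 CPM). Rsad2 stood at 276 CPM there (median 849.8 CPM) and Sp100 at 113 CPM (median 422 CPM). It was the highest of the group for Ifi27, at 106 CPM against a median of 48.1 CPM. The same library had the highest mitochondrial share of all, 2.50%, and the lowest total, 12.5 M counts. The part of these measures in its antiviral levels was not tested. The last such value was Siglec1 in the WT library of mouse 5, at 0.314 CPM against a group median of 8.76 CPM.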

How the results depend on the processing

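The median log2 fold change of the members stayed between -0.38 and -0.24 in every setting run, and no called member changed sign. With 1 mouse left out, that median ran from -0.35 to -0.30, members called lower from 5 to 17, members called higher from 0 to 1, all genes lower from 144 to 334 and all genes higher from 19 to 78. Without the mouse block 8 members were lower and 0 higher, with 216 genes lower and 52 higher overall. DESeq2 called 15 members and 572 genes lower and 488 genes higher, and limma-voom 17 members and 432 genes lower and 178 higher. The mitochondrial covariate, the plain percent of all counts on mitochondrially encoded mRNAs as a linear term, left 3 members lower and 0 higher, with 85 genes lower and 8 higher. Other definitions of that share were not run. Genes called higher numbered 102 with library totals, 31 with no filter and 126 with a mean of at least 10 CPM. Signs turned only among members not called. They did so with library totals for Ifit3b (0.051), Oas1g (0.10) and Oasl1 (4.8e-04), with the 10 CPM minimum for Ifit3b (0.024) and Oas1g (0.073), and with limma-voom for Oas1g (0.035) and Siglec1 (-0.047). With the mitochondrial covariate they turned for Usp18 (0.034), Ifit3b (0.20), Oas1g (0.026), Oasl1 (0.15), Rsad2 (0.10), Cmpk2 (1.02), Ifitm1 (-0.016), Ifitm2 (-0.19) and Ifitm3 (-0.30). Without 1 mouse they turned for Siglec1 (-0.10 without mouse 2 and -0.35 without mouse 5), Oas1g (0.014 without mouse 3), Mx2 (-0.034 without mouse 4) and, without mouse 7, Ifit3b (0.019), Oas1g (0.049), Oasl1 (0.032), Cmpk2 (0.074) and Ifitm3 (-0.036). Over all mice left out in turn, Ifit3b ran from -0.11 to 0.019, Oas1g ran from -0.085 to 0.049, Oasl1 ran from -0.17 to 0.032, Mx2 ran from -0.034 to 1.37, Cmpk2 ran from -0.58 to 0.074, Ifitm3 ran from -0.036 to 0.21 and Siglec1 ran from -0.35 to 0.26. The cause of these shifts was not tested. No member passed the correlation test in any alternative run, with 32 to 37 of 39 values of r above 0. In the 150 bases before the start alone, 35.5% of the 31 members with a window held ISRE and 12.9% GAS letters, against 2.28% and 4.40% of the tested genes with a window. Low counts limit the precision of Mx2, Phf11d and Siglec1.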
